A study of Mus musculus with 4 samples.

Results

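Bulk RNA-seq of CD24+ splenic emergency progenitors (EPs) was examined for 10 genes of the endolysosomal antigen-processing route. EPs are CD11c+CD117+ cells that appear in the spleen under high Flt3L and give rise to conventional dendritic cells (cDCs). The 10 genes were picked by gene symbol, with earlier results of these data known. They include the cathepsins Ctss, Ctsl, Ctsb, Ctsd, Ctsh and Ctsz and legumain (Lgmn). The others are the thiol reductase GILT (Ifi30), cystatin C (Cst3) and the lysosomal membrane glycoprotein Lamp1. All 10 were among the 40213 gene symbols in the deposited tables and had enough counts to be among the 12393 genes tested. Young adult mice were injected i.p. on day 0 and again on day 3 with 10 μg of Flt3L-Ig, and on day 9 the cells were sorted from splenocytes. The WT group held 2 libraries from Topbp1 fl/fl littermates, and the other held 2 libraries from Topbp1 fl/fl, CD11c-cre mice, labelled TopBP1cKO. All 4 libraries thus came from animals that carried the floxed allele and had received Flt3L-Ig. By this design, deletion could occur only in cells in which the CD11c promoter had driven Cre, and excision itself was not examined here. No source says whether a library was 1 animal or a pool, so the P values measure the spread between these libraries, which may be technical.

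The libraries held from 14561583 to 15193831 counts. For Topbp1, the targeted gene, WT replicates 1 and 2 held 1102 and 1143 counts. TopBP1cKO replicate 1 held 773, and TopBP1cKO replicate 2 held 1279, more than either WT library. The log2 difference was −0.20 (SE 0.21, FDR 0.774), and for this reason the libraries are named by their labels throughout. Itgax, Kit and Cd24a encode the markers that define the sorted cells, and Flt3 was listed with them. These genes summed to 2790 and 2714 CPM (counts scaled to a common library size) in the WT libraries. In the libraries labelled TopBP1cKO they summed to 2632 and 2401 CPM. Macrophages are rich in lysosomal proteases, and the 8 macrophage markers looked for, among them C1qa and Adgre1, summed to between 15.2 and 19.0 CPM in every library, with none at 0 in all 4. The 7 cDC1 markers summed to 8388 and 8399 CPM in the WT libraries and to 8191 and 7603 CPM in those labelled TopBP1cKO. Xcr1, Clec9a and Cadm1 were lower in both of the latter than in both WT libraries (FDR from 0.347 to 0.699). Of these, Cadm1 had the largest log2 difference, −0.51. None of the 7 was higher in both, and the most abundant, Wdfy4 and Irf8, overlapped between the groups.

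Antigen taken up by a dendritic cell is unfolded and cut in endosomes and lysosomes before its peptides are loaded onto MHC class II. GILT reduces disulfide bonds, legumain cuts after asparagine, and the cathepsins act as endopeptidases or trim the ends of peptides. Cathepsin S removes the last part of the invariant chain from MHC class II in dendritic cells, cathepsin L does so in thymic cortical epithelium, and cystatin C inhibits cysteine cathepsins. LAMP-1 lines the lysosome and is a general marker of that compartment.

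To compare the genes with each other, counts were divided by transcript length and scaled by the library size (CPM per kb). Cst3 stood far above the rest, at 7175 ± 62.3 (SD, n = 2) in WT EPs, which was 14.9-fold over the next gene. By plain counts it was the 9th most abundant gene of all in both WT libraries, with 0.596% (95% Wilson interval 0.592–0.600%) and 0.618% (0.614–0.622%) of all counts. Such intervals cover counting error only.

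Ctss followed at 482 ± 1.35 and Ifi30 at 431 ± 31.8 CPM per kb in WT EPs. Ctsz, which encodes a carboxypeptidase, was at 141 ± 2.88, and Ctsh, which encodes mainly an aminopeptidase, at 90.4 ± 2.56. Ctsb was at 64.5 ± 1.44, Lamp1 at 62.5 ± 2.86 and Lgmn at 25.9 ± 1.52. The lowest were the aspartic protease gene Ctsd, at 7.35 ± 0.112, and Ctsl, at 2.71 ± 0.886. The transcript of the invariant chain protease Ctss thus exceeded that of Ctsl by 144-fold and 232-fold in the WT libraries and by 154-fold and 199-fold in those labelled TopBP1cKO. The size of this gap depended on the length taken for Ctsl, since the transcript with most of its counts, XM_006517080.2, could not be matched to a GENCODE length and was given that of NM_009984.4. With the longest annotated transcript of each gene, the WT mean was 0.865 CPM per kb for Ctsl and 482 for Ctss. Ctss made up from 56.3% to 61.9% of the summed level of the cysteine cathepsins Ctss, Ctsl, Ctsb, Ctsh and Ctsz.

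The order of the 10 genes was nearly the same in all 4 libraries. Adjacent genes did not overlap over the 4 libraries, with 2 exceptions, the pairs of Ctss with Ifi30 and of Ctsb with Lamp1. Both pairs changed places with the label: Ctss was above Ifi30 in both WT libraries and below it in both others, and Ctsb was above Lamp1 in both WT libraries and below it in both others. These places rest on lengths that were in part not matched. Ifi30 took the longest GENCODE transcript of its symbol, and the Ctsb transcript XM_017315833.1 took the length of NM_007798.3. The WT means differed by only 1.12-fold (Ctss over Ifi30) and 1.03-fold (Ctsb over Lamp1). The ratio of Ifi30 to Ctss was 0.848 and 0.938 in WT EPs against 1.08 and 1.23 in the libraries labelled TopBP1cKO. This ratio was picked after its values were seen, and the smallest P value that an exact permutation of 2 against 2 libraries allows is 0.333, so it is given as a description. The place of Ctsb, Lamp1 and Ctsh also depended on the transcript length used: with the longest annotated transcript of each gene Ctsb was 5th, Lamp1 6th and Ctsh 7th.

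**Figure D1:**
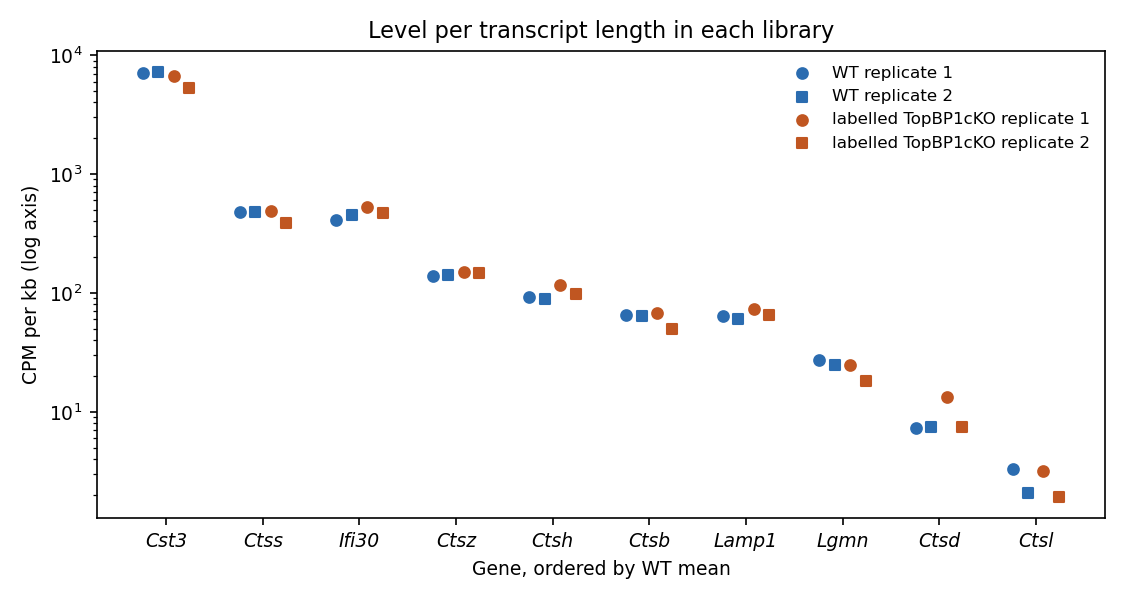
Level of each gene per transcript length (CPM per kb, log axis) in the 4 libraries, ordered by the mean of the 2 WT libraries (circle, replicate 1; square, replicate 2). Cst3 lies above all other genes in each library, and Ctsd and Ctsl lie lowest, with Ctss and Ifi30 close together.

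The windows of 250 bases before the transcription start were read from RefSeq promoter sequences of GRCm38.p6, which hold 9 windows for 8 of the genes, 2 of them for Lgmn. They are not from GRCm39, the build named in the processing notes. Lysosomal genes are known for E-boxes of the CLEAR type, bound by TFEB and related factors, and genes induced by interferons for elements of the GAAA type. The letters CACGTG, searched on both strands, were found in windows of 5 genes (Ctsd, Lamp1, Ifi30, Lgmn and Ctsl) and in 6.02% of all 32851 windows of this length. Of the 2 windows of Lgmn, 1 held these letters, beginning 49 bases before its start, and the other did not. The count is of genes, whereas the share is of windows. The longer TCACGTGA, which contains CACGTG and so overlaps it, was found for Ctsd and Ifi30 and in 0.785% of all windows. The letters GAAANNGAAA were found for Ctss and Lamp1 and in 2.98% of all windows, and the letters GGAANNGAAA, as in elements shared by PU.1 and IRF8, in none of the 9 and in 2.30% of all windows. A match of letters is a description and not a binding site. The windows of 4 genes are shown, 5′ to 3′ on the strand of the gene, because they hold the most matches (Lamp1), the longer palindrome (Ctsd, Ifi30) and the match of the main invariant chain protease (Ctss). Capitals mark CACGTG or, in Ctss and the first match of Lamp1, GAAANNGAAA on either strand. They lie at chr7:142387828-142388077 (minus strand) for Ctsd, chr8:13158911-13159160 (plus) for Lamp1, chr8:70766664-70766913 (minus) for Ifi30 and chr3:95526536-95526785 (plus) for Ctss.
Ctsd: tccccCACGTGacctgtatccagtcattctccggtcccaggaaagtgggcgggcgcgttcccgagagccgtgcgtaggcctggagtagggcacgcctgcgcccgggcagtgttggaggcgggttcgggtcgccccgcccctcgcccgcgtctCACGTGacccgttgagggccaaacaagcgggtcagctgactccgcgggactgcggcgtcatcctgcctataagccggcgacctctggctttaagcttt
Lamp1: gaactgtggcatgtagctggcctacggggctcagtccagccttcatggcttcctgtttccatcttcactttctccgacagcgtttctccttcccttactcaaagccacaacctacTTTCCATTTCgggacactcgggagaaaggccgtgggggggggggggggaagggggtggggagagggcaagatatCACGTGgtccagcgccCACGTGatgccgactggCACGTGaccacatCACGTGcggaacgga
Ifi30: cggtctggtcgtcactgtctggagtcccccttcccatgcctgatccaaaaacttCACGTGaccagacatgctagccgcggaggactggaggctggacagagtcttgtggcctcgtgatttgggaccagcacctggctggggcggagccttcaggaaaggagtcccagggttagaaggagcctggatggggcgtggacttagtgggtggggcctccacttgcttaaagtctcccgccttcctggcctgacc
Ctss: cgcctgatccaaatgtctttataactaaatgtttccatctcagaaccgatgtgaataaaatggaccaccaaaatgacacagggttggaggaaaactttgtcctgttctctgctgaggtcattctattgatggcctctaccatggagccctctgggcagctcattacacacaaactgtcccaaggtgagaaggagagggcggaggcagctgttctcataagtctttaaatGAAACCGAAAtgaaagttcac
In Lamp1 all 4 E-box cores lay close to the start, beginning 61, 45, 28 and 15 bases before it. In Ctsd they began 245 and 98 bases before it, and in Ifi30 the single core began 196 bases before it.

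The comparison of the libraries labelled TopBP1cKO with WT asked whether the label came with a change of these genes in EPs. Topbp1 counts in TopBP1cKO replicate 2 exceeded those of both WT libraries, so the groups were compared by label only. None of the 10 genes changed at FDR < 0.05 by the quasi-likelihood test of edgeR, and 0 genes reached an unadjusted P value below 0.05. Over all genes tested, 0.105% passed FDR < 0.05 and 10.7% had an unadjusted P value below 0.05. The fold changes were small and of both signs, 5 above and 5 below 0 on the log2 scale, with a median of 0.00 against 0.01 over all genes. Both libraries labelled TopBP1cKO were above both WT libraries for 4 genes (Ctsh, Ctsz, Ifi30 and Lamp1), and 22.8% of all genes tested were so placed. Both were below for 2 genes (Lgmn and Cst3), and 20.8% of all genes tested were so placed. In sorted bulk cells, fewer cells of a type and less RNA per cell cannot be told apart.

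Among the cysteine endopeptidases, Ctss had 652 and 655 CPM in the WT libraries and 661 and 521 CPM in TopBP1cKO replicates 1 and 2. The first of these was above both WT libraries and the second at 79.8% of their mean, so the groups overlapped. The log2 fold change was −0.14 (SE 0.15, FDR 0.772), and its 95% interval corresponded to a fold of 0.710 to 1.15. Ctsb, an endopeptidase that can also trim the carboxyl end, had 311 and 301 CPM in the WT libraries and 319 and 237 CPM in the others, with the same overlap (log2 fold change −0.14, SE 0.16, FDR 0.791; fold interval 0.704 to 1.17). Ctsl was low, with 93 and 62 counts in WT EPs and 95 and 59 in the others, so each group held 1 high and 1 low library. The log2 fold change of Ctsl was −0.08 (SE 0.36, FDR 0.960). At this depth its interval, 0.531-fold to 1.67-fold, was wide.

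Ctsh and Ctsz encode cathepsins that trim the ends of peptides. Ctsh had 149 and 143 CPM in the WT libraries and 187 and 158 CPM in the libraries labelled TopBP1cKO, both above WT. Its log2 fold change was 0.24 (SE 0.13, FDR 0.549), the lowest FDR of the 10 genes, with a fold interval of 0.964 to 1.45. Ctsz was the steadiest gene, with 199.6 and 205 CPM in the WT libraries and 218 and 214 CPM in the others (log2 fold change 0.09, SE 0.11, FDR 0.812). Its interval, 0.890-fold to 1.27-fold, was the narrowest. The gene Ctsd, whose product is the main lysosomal aspartic protease, had 219 and 239 counts in WT EPs, 432 in TopBP1cKO replicate 1 and 243 in TopBP1cKO replicate 2. Only TopBP1cKO replicate 1 stood apart, at 181% of the WT mean, whereas the other was at 100.5%. The log2 fold change of 0.49 (SE 0.27, FDR 0.566) was the largest of the 10 and had a fold interval of 0.910 to 2.18.

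Lgmn had 53.8 and 49.5 CPM in the WT libraries and 49.4 and 36.5 CPM in those labelled TopBP1cKO. The higher of the latter lay just under the lower WT library, so the groups parted by a narrow margin (log2 fold change −0.27, SE 0.17, FDR 0.617; fold interval 0.633 to 1.09). As plain shares of all counts, without TMM scaling, they overlapped, with 0.00492% in WT replicate 2 and 0.00497% in TopBP1cKO replicate 1. Ifi30, which is induced by interferon-γ, had 401 and 445 CPM in the WT libraries and 518 and 463 CPM in the others. Both of these lay above WT, and the log2 fold change was 0.22 (SE 0.13, FDR 0.602; fold interval 0.940 to 1.43).

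Cst3 had 6133 and 6208 CPM in the WT libraries and 5755 and 4537 CPM in the libraries labelled TopBP1cKO. Both of the latter were lower, at 93.3% and 73.5% of the WT mean, and the log2 fold change was −0.26 (SE 0.18, FDR 0.655; fold interval 0.620 to 1.12). Cst3 held from 71.7% to 76.1% of the summed counts of the 10 genes. That sum was 0.784% and 0.812% of all counts in WT EPs against 0.795% and 0.649% in the others. The level of Cst3 per length, set against the summed cysteine cathepsins it inhibits, was 9.13 and 9.26 in WT EPs against 8.11 and 7.73 in the libraries labelled TopBP1cKO. This ratio was not tested either. Lamp1, finally, had 144 and 135 CPM in the WT libraries and 164 and 145 CPM in the others (log2 fold change 0.15, SE 0.12, FDR 0.704; fold interval 0.911 to 1.35).

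**Figure D2:**
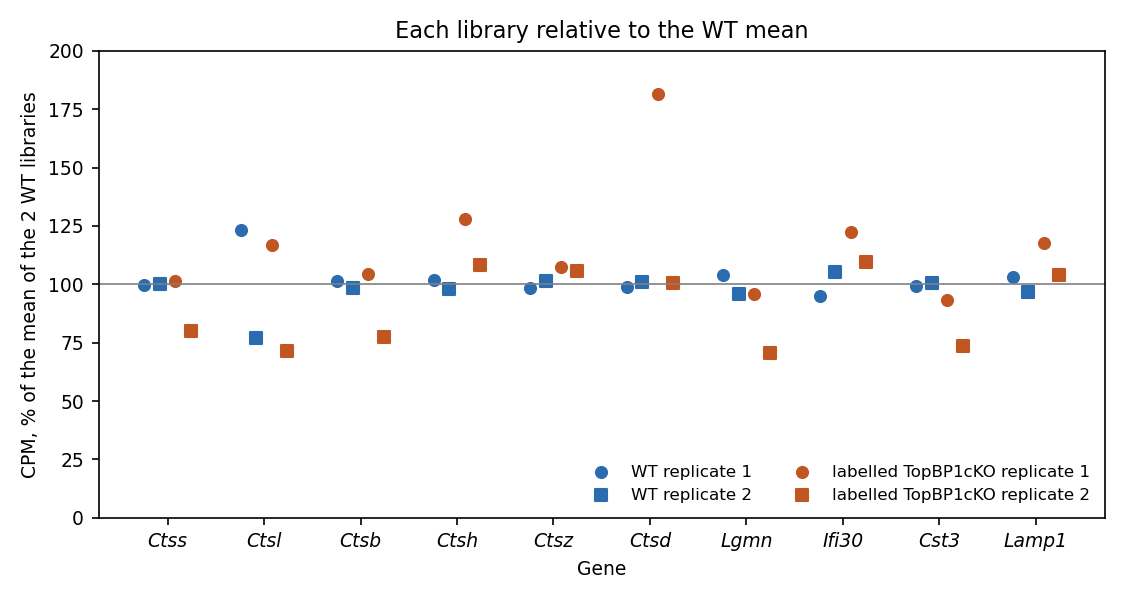
CPM of each gene in each library as a percentage of the mean of the 2 WT libraries (grey line, 100%; circle, replicate 1; square, replicate 2). TopBP1cKO replicate 2 is below TopBP1cKO replicate 1 for every gene, and Ctsd in TopBP1cKO replicate 1 lies at 181%.

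The libraries labelled TopBP1cKO also differed from each other. All 10 genes were lower in TopBP1cKO replicate 2 than in TopBP1cKO replicate 1, as were 51.2% of all genes tested, and the median of the 10 log2 differences was −0.34 against −0.01 over all genes. Relative to TopBP1cKO replicate 1, the level in TopBP1cKO replicate 2 was lower by 44.6% for Ctsd, 38.8% for Ctsl, 26.2% for Lgmn, 25.8% for Ctsb, 21.2% for both Ctss and Cst3, 15.3% for Ctsh, 12.0% for Lamp1, 10.5% for Ifi30 and 1.86% for Ctsz. Of the WT libraries, replicate 2 was lower for 5 of the 10 genes, with a median log2 difference of −0.02. All 10 were also lower with DESeq2 size factors, upper quartile scaling or plain library totals, with a median from −0.36 to −0.32. A difference between single libraries has no replicate check. The same libraries differed in other genes too. The 5 genes of the MHC class II list (H2-Aa, H2-Ab1, H2-Eb1, the invariant chain gene Cd74 and the transactivator gene Ciita) summed to 37793 and 39524 CPM in the WT libraries, 37199 in TopBP1cKO replicate 1 and 27460 in TopBP1cKO replicate 2. Ciita by itself was highest in TopBP1cKO replicate 2, with 690 and 633 CPM in WT EPs against 694 and 840. The 8 cell cycle genes, among them Mki67 and Top2a, summed to 433 and 425 CPM in the WT libraries, 556 in TopBP1cKO replicate 1 and 1587 in TopBP1cKO replicate 2. The 9 neutrophil markers summed to 1472 and 1219 CPM in the WT libraries and to 3165 and 2403 CPM in the others. This difference went with the label. In the quasi-likelihood test of all 4 libraries, 5 of the 9 were higher at FDR < 0.05, against 0.105% of all genes tested in either direction. These were Ltf, S100a8, S100a9, Lcn2 and Ngp (log2 fold changes from 1.48 to 1.79, FDR from 0.00634 to 0.00762). Mpo and Elane, which belong to this list, were lower in TopBP1cKO replicate 2 than in replicate 1 (195 against 874 CPM for Mpo). Camp (103 against 150 CPM), Ngp (690 against 706) and S100a8 (293 against 305) were lower there too. Ltf, S100a9, Lcn2 and Mmp8 were higher. The cDC2 markers summed to 85.9 and 97.5 CPM in WT and to 148 and 208 CPM in the others, monocyte markers to 637 and 604 against 810 and 640 CPM, and pDC markers to 199.8 and 205 against 166 and 163 CPM. Of the 5 monocyte markers, Chil3 alone passed FDR < 0.05 in the same test (log2 fold change 1.59, FDR 0.00961). The part of these differences in the levels of the 10 genes was not tested.

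The calls therefore turned on which of the libraries labelled TopBP1cKO was kept. Without TopBP1cKO replicate 1, 4 genes were lower at FDR < 0.05, as were 9.33% of all genes then tested. These were Cst3 (log2 fold change −0.45, FDR 0.00447), Lgmn (−0.50, FDR 0.0115), Ctsb (−0.37, FDR 0.0208) and Ctss (−0.33, FDR 0.0356). Without TopBP1cKO replicate 2, none of these 4 was called, and their values were −0.11 for Cst3, −0.07 for Lgmn, 0.05 for Ctsb and 0.01 for Ctss. In that fit Ctsd was higher at FDR < 0.05 (log2 fold change 0.85, FDR 0.00298), as were 1.11% of all genes then tested, whereas Ctsd was at 0.00 without TopBP1cKO replicate 1. A fit with 1 library left in a group assumes that it would vary like the other group. Ctsh, Ctsz, Ifi30 and Lamp1 kept a value above 0 with each library left out in turn and passed FDR < 0.05 in none of these fits.

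**Figure D3:**
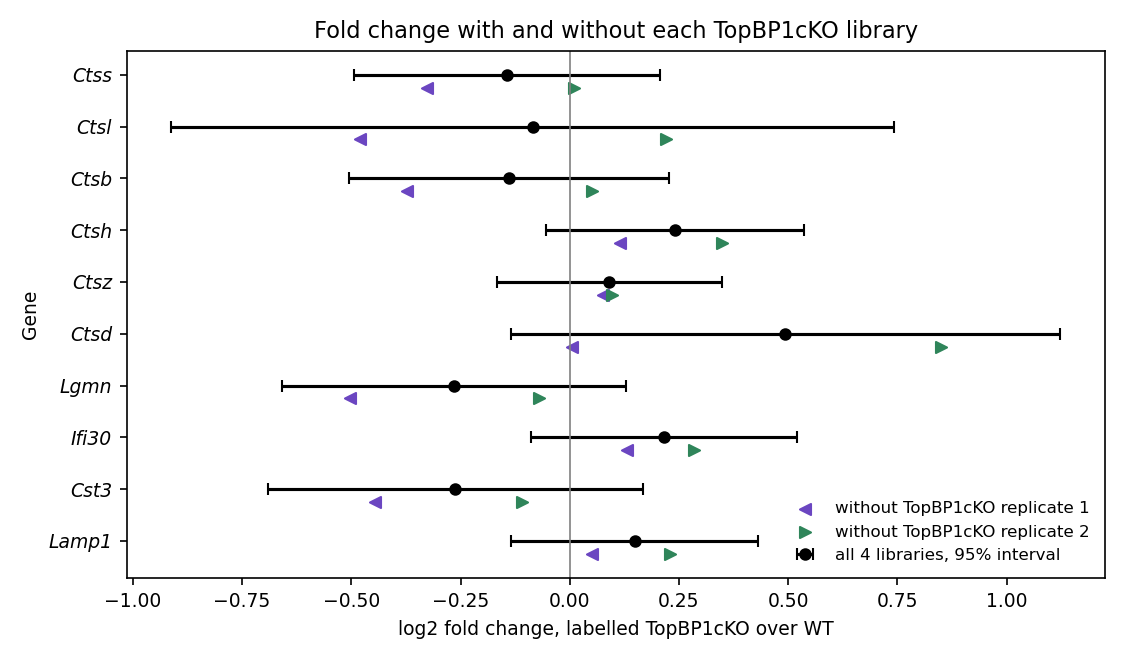
Log2 fold change of each gene in the libraries labelled TopBP1cKO over WT, with its 95% interval from all 4 libraries (black), and the value without TopBP1cKO replicate 1 (triangle to the left) or replicate 2 (triangle to the right). All 10 intervals include 0, and the value without replicate 1 lies to the left of the value without replicate 2 for every gene.

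The counts of single transcripts were looked at because the files give them separately. In all, 4 genes (Ctsd, Ctsz, Ifi30 and Cst3) had 1 transcript, and the others had 2 or 3. For Ctss, from 92.8% to 94.1% of the counts lay on NM_021281.3 in every library. Ctsb was divided nearly evenly between NM_007798.3, with 2297, 2157, 2376 and 1922 counts in WT and then TopBP1cKO replicates, and XM_017315833.1, with 2104, 2397, 2484 and 1739. The second transcript of Lamp1, NM_001317353.1, had 0 and 26 counts in WT EPs against 91 and 63 in those labelled TopBP1cKO. No transcript of the 10 genes passed FDR < 0.05 in a quasi-likelihood test of each transcript by itself. The division between transcripts depends on how shared reads were assigned, which is not given in the sources used here.

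Some exons of these genes overlap those of a gene on the opposite strand in GENCODE M21, and the use of strand in the counting is not stated. The partner of Ctsb is Fdft1, with from 549 to 744 counts, and the partner of Ctsz is Nelfcd, with from 475 to 606. Reads from such a pair cannot be told apart here. The partners of Ifi30 and Lamp1 had 13 counts or fewer in every library. Ctsd and Ctsl overlap a predicted gene on the same strand (Gm49369 and Gm49230), and Ctsl also overlaps Gm47123 on the opposite strand. These 3 were not analysed here.

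Values of 7 lists of other endolysosomal genes were read from the same fit, 98 genes in all, of which 94 were tested. None of the 94 passed FDR < 0.05, and 4 had an unadjusted P value below 0.05 with a higher and 3 with a lower value in the libraries labelled TopBP1cKO, where 10.7% of all genes tested had such a P value in either direction. The median of the 94 log2 fold changes was −0.06, with 34 above and 60 below 0, and 6345 of the 12393 genes tested were above 0. The lysosomal hydrolases and their activators had 6 values above and 18 below 0 (median −0.11), and the lysosomal membrane genes had 4 above and 13 below (median −0.11). The 16 subunits of the V-ATPase, which acidifies the lysosome, had a median of −0.04, the 17 genes for sorting to lysosomes one of 0.03, and the 5 transcription regulators one of −0.05. The 10 other lysosomal proteases had a median of 0.02 and the 5 inhibitors of the cystatin and serpin type one of 0.32. Between the libraries labelled TopBP1cKO, 74 of the 94 genes were lower in replicate 2, as were 51.2% of all genes tested. The median log2 difference was −0.18, against −0.01 over all genes. Other scalings gave from 71 to 75 of the 94 genes and medians from −0.20 to −0.16.

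**Figure D4:**
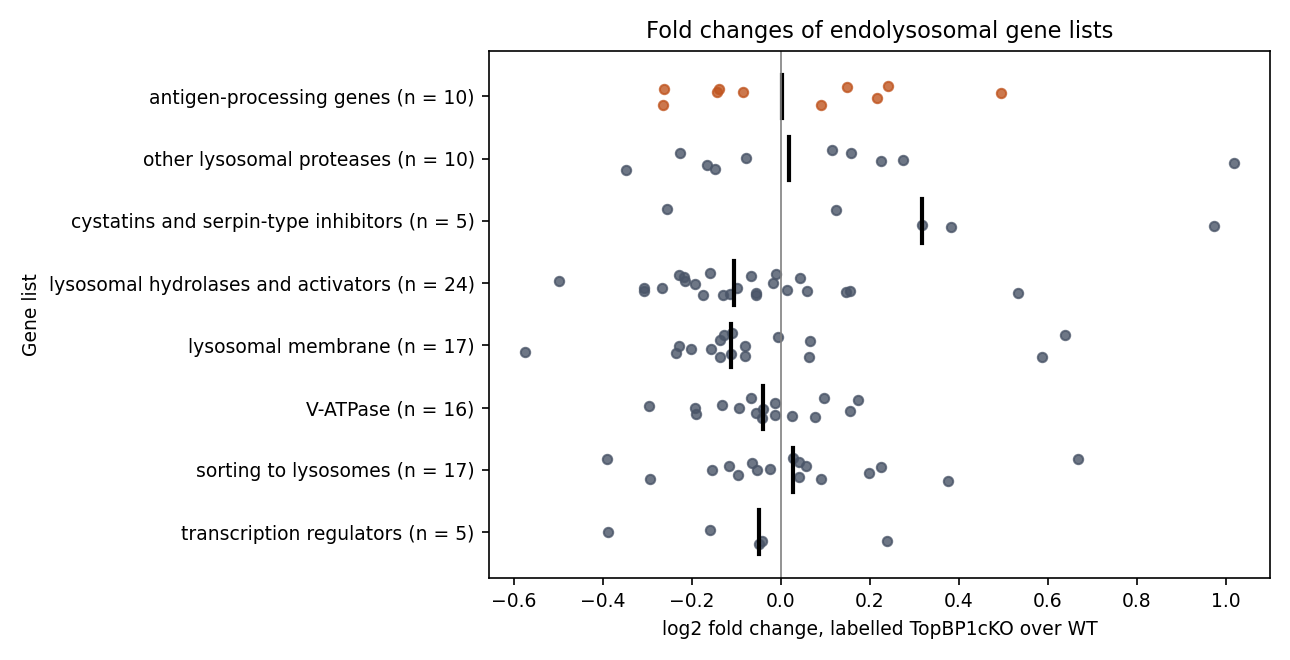
Log2 fold change in the libraries labelled TopBP1cKO over WT for the 10 antigen-processing genes (orange) and for the tested genes of 7 other endolysosomal lists (grey), with the median of each list as a black line. The 10 genes lie between −0.27 and 0.49, around a median of 0.00.

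By the rule for naming, 12 genes of these lists are given, none of them past FDR < 0.05. Npc2, which carries cholesterol out of the lysosome, had 10895 and 11791 counts in WT EPs against 10004 and 5929 (log2 fold change −0.58, FDR 0.447). Fuca1, the lysosomal fucosidase, had 5348 and 5899 against 5009 and 3328 counts (−0.50, FDR 0.430). In CPM, as for Cst3 and Lgmn, both values were lower than in WT and TopBP1cKO replicate 2 was the lowest. The other 4 with lower values were Igf2r (−0.39), Atp6v1d (−0.30), Rab5a (−0.29) and Lipa (−0.27). Serpinb1a, an inhibitor of neutrophil serine proteases, had 209 and 172 counts in WT EPs against 465 and 321 (log2 fold change 0.97, FDR 0.307). Ctsw, a cathepsin of cytotoxic lymphocytes, had 15 and 16 against 45 and 21 counts (1.02, FDR 0.524). The T cell markers in the files summed to 2.05 and 1.32 CPM in WT and to 5.78 and 2.39 CPM in the others. Their counts were low, from 2 to 23 for Cd3d and from 5 to 24 for Cd3e. Whether the values of Ctsw go with T cells was not tested. The remaining 4 with higher values were Gga2 (0.67), Slc15a3 (0.64), Rab27a (0.38) and the carboxypeptidase gene Ctsa (0.27).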

How the data were processed

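CD24+ EPs were profiled by bulk RNA-seq, with 2 WT libraries and 2 labelled TopBP1cKO, grouped by the labels. Libraries were made with the CORALL RNA-seq V2 kit. The authors deposited whole-number read counts per RefSeq transcript, without normalization. Per the labels, the processing notes name fastp, STAR, Salmon, GATK and the build GRCm39, with no versions or roles, and the counts may be rounded Salmon estimates. The division of reads among transcripts of a gene depends on that step, and sums per gene less so.

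Counts were summed per symbol, and 19815 genes had a count. The 12393 genes kept by filterByExpr were normalized by TMM and tested with edgeR 4.0.16 (functions glmQLFit and glmQLFTest), and P values were adjusted over all of them by Benjamini-Hochberg (FDR < 0.05). The biological coefficient of variation was 15.2%. An SE is the log2 fold change divided by the root of F. CPM used TMM effective library sizes. Lengths came from GENCODE M21, matched by RefSeq accession. A transcript with no match took the length of the most counted matched transcript of its gene, or of the longest GENCODE transcript where the gene had none. Shares carry 95% Wilson intervals. Depth ran from 14561583 to 15193831 counts. Tests were tested on simulated data with seed 11. R 4.3.3, DESeq2 1.42.0, limma 3.58.1, scipy 1.17.1 and Python 3 were used.

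The 10 genes and all lists were chosen with earlier results of these data known. Named beside them were Topbp1, list genes past FDR 0.05 and, in each direction, the 6 list genes with the smallest P value, a mean of at least 20 counts and groups that do not overlap. The T cell marker Trac was not analysed here. Csta was matched to Csta1 by synonym. Alternatives were other normalizations (DESeq2 size factors, upper quartile), other tests (DESeq2 Wald, edgeR likelihood ratio, limma-voom), no filter, at least 10 counts in every library, each transcript as its own feature, a replicate block and each library left out.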

Additional observations from a re-analysis of the deposited data

How the results depend on the processing

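Of 120 values of the 10 genes under alternatives, 111 kept their direction and side of FDR < 0.05, and the 80 that did not leave out a library all did. With each library left out in turn, the log2 fold change ran from −0.33 to 0.009 for Ctss, from −0.37 to 0.0509 for Ctsb and from −0.48 to 0.29 for Ctsl, and the number of the 10 genes at FDR < 0.05 ran from 0 to 4. For the other endolysosomal genes it ran from 0 to 15 and for all genes from 1 to 2625, against 13 with all libraries. Both upper ends were reached without TopBP1cKO replicate 1. Whether the replicate numbers pair the libraries cannot be told from 2 libraries per group (correlation of same-numbered deviations −0.0147). With a replicate block, 2 other endolysosomal genes (Npc2 and Serpinb1a) and 504 of all genes passed FDR < 0.05, and none of the 10. The edgeR likelihood ratio test gave 1 (Serpinb1a) and 234, and the DESeq2 Wald test gave 141 of all genes. Each transcript by itself gave 0 by the quasi-likelihood test, with 2018 at an unadjusted P value below 0.05. The causes were not tested. RefSeq transcript lengths were not at hand, so the alternative for length used the longest GENCODE transcript, under which 7 of the 10 genes kept their place in the order of levels. Depth limits Ctsl, with 59 to 95 counts, most.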
